A study of Nothobranchius furzeri with 20 samples.

Results

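The 46 genes described here were higher in the skin of every 27-week turquoise killifish than in that of every 9-week fish, while the ranges of the 2 sets of 27-week libraries overlapped. They were chosen by a rule on the measured levels themselves, among 26739 genes. A gene had to average at least 1 and under 1000 CPM over the 20 libraries, where CPM is a count scaled to a common library total. Its lowest 27-week library had to lie above its highest 9-week library, the ranges of the 27-week title runs had to overlap, and so had those of exercised and unexercised 9-week fish. The rule would have kept the 150 genes with the widest gap, but 46 passed and all were kept. Because every library took part in the choice, the differences between ages, between 27-week runs and between 9-week groups are given below as descriptions. The counts of genes past an edgeR threshold, printed beside the share of all genes, restate the rule and support nothing.

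Total RNA from skin was sequenced in male Nothobranchius furzeri of the strain MZM-04/10p. There were 10 libraries from exercised fish of 27 weeks, 5 from exercised fish of 9 weeks and 5 from unexercised fish of 9 weeks. Exercise was swimming in a swim tunnel, a chamber in which a fish swims against a current. The 27-week titles form a pair of runs under one label, JM132 to JM136 and JM140 to JM144, and what separates these runs is not given in the labels. Every 27-week fish was exercised, so exercise cannot be set apart at that age, and age cannot be told apart from anything else that goes with the title numbers. The labels do not state that the libraries of a group came from separate animals. Each was taken as 1 fish.

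The turquoise killifish is an annual fish of seasonal African pools and one of the shortest-lived vertebrates kept in the laboratory, and strains derived from Mozambican populations live longer than the inbred strain GRZ. Its skin is a moist, living epithelium with mucous cells over a dermis with scales, pigment cells, vessels and nerves. In other ageing vertebrates, skin is known for lower renewal of the epidermis, changes in the collagen matrix and more immune cells and inflammatory signalling. The files pair none of the 46 identifiers with a gene name, and 0 of 26739 identifiers matched the reference gene table, so no role can be given for any member, and the label skin could not be checked against marker genes. A few identifiers are printed, and the other members are named by their rank of gap, from 1 for the widest to 46. In RNA from whole tissue, more cells of a type and more RNA per cell cannot be told apart.

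Library totals were 20597690 to 38619614 counts, so that 1 CPM stands for 20.6 to 38.6 counts. The lowest member count in any library was 3, and 4 members had fewer than 10 counts in at least 1 library of 9 weeks.

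Separation of the ages was rare in the upward direction. Of 16648 genes in the abundance window, 84 (0.505%) had every 27-week library above every 9-week library. Among these, 37 were dropped because the 27-week runs did not overlap. JM132 to JM136 lay above JM140 to JM144 in 36 of them and below in 1. One more was dropped because the 9-week groups did not overlap, which left 46. Without 1 unexercised fish of 9 weeks, JM126, 164 genes separated upward, and without JM135 the whole rule passed 73. The mirrored rule found 644 genes with every 27-week library lower, of which 450 passed the overlap steps. This imbalance depended on the scaling. With library sizes corrected by TMM, a scaling by the bulk of the genes in place of the total, 311 genes separated upward and 347 downward, so the upward share was 47.3% with TMM and 11.5% with library totals.

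The margin between the ages was narrow for most members. The gap, the lowest 27-week library over the highest 9-week library, had a median of 1.09-fold on the scale of CPM + 0.5 and a widest value of 1.42-fold. It was above 1.1-fold for 20 members and above 1.2-fold for 6. The last members inside the limit had gaps of 0.0034, 0.0034 and 0.00044 on the log2(CPM + 0.5) scale, and the first genes outside had -0.0075, -0.014 and -0.015. In the member at the edge, the lowest 27-week library had 8.77 CPM and the highest 9-week library 8.76 CPM. The first gene outside had 44.01 CPM in its lowest 27-week library and 44.2 CPM in its highest 9-week library. Average levels lay further apart than these edges. The mean CPM of the 10 fish of 27 weeks was a median of 2.13 times that of the 10 fish of 9 weeks, with a range of 1.31 to 16.6 times.

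**Figure D1:**
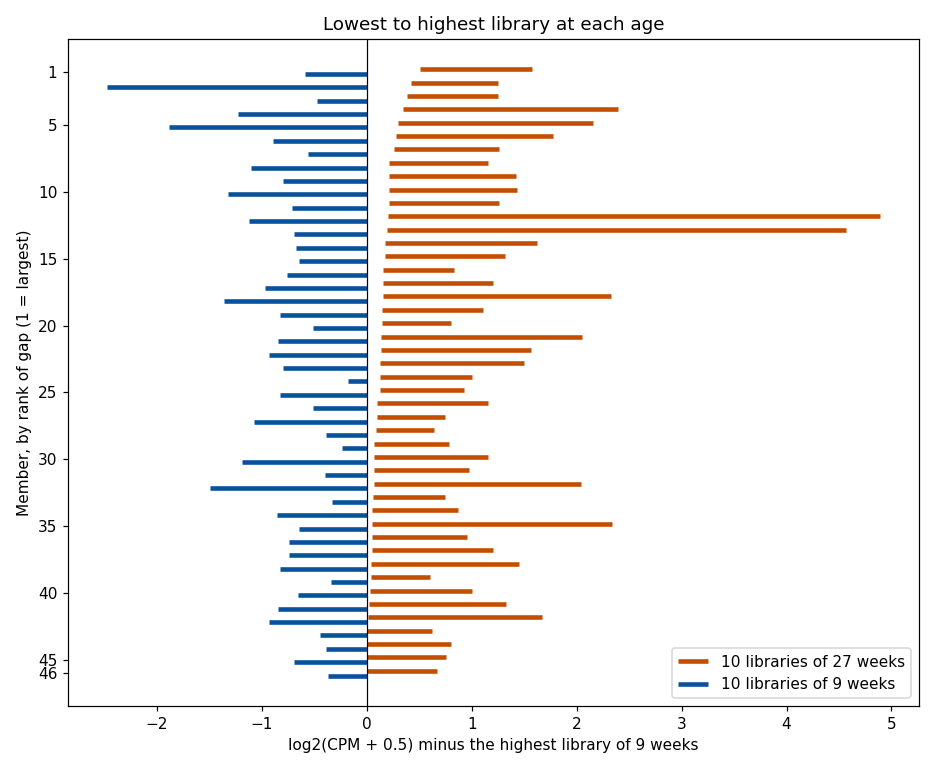
Range of each member over the 10 libraries of 27 weeks (orange) and the 10 libraries of 9 weeks (blue), on the log2(CPM + 0.5) scale relative to the highest 9-week library (0), with members from top to bottom by rank of gap. The orange bars start at most 0.50 above 0 and reach far to the right in a few members, most of all in ranks 12 and 13.

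Nfu_g_1_005431 had the widest gap. In 27-week fish it had 83.0, 72.6, 74.2, 67.8 and 113 CPM in JM132 to JM136 and 62.7, 64.8, 64.1, 131.99 and 105 CPM in JM140 to JM144. In 9-week fish it had 32.8, 29.0, 35.9, 32.1 and 43.0 CPM with exercise and 37.4, 32.9, 35.8, 33.7 and 44.1 CPM without. Its 20 values fall into an old and a young group with nothing between 44.1 and 62.7 CPM, and the high 27-week fish JM136, JM143 and JM144 came from both runs. The mean was 83.9 ± 24.2 CPM at 27 weeks (SD, n = 10) and 35.7 ± 4.76 CPM at 9 weeks (SD, n = 10). The edgeR log2 fold change over exercised 9-week fish was 1.31 (SE 0.175).

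Nfu_g_1_001848, second by gap, had a larger average difference and a wide spread among young fish. It had 90.6, 70.4, 73.7, 65.5 and 61.0 CPM in JM132 to JM136 and 109, 92.3, 103, 87.2 and 67.6 CPM in JM140 to JM144. Exercised 9-week fish had 7.77, 12.7, 17.9, 9.83 and 24.3 CPM, and unexercised ones 33.8, 23.0, 18.6, 24.7 and 45.6 CPM. The older fish kept within 1.79-fold of each other and the young fish spread over 5.87-fold, with the lowest values among the exercised ones. Its edgeR log2 fold change at 27 weeks over exercised 9-week fish was 2.60 (SE 0.274).

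**Figure D2:**
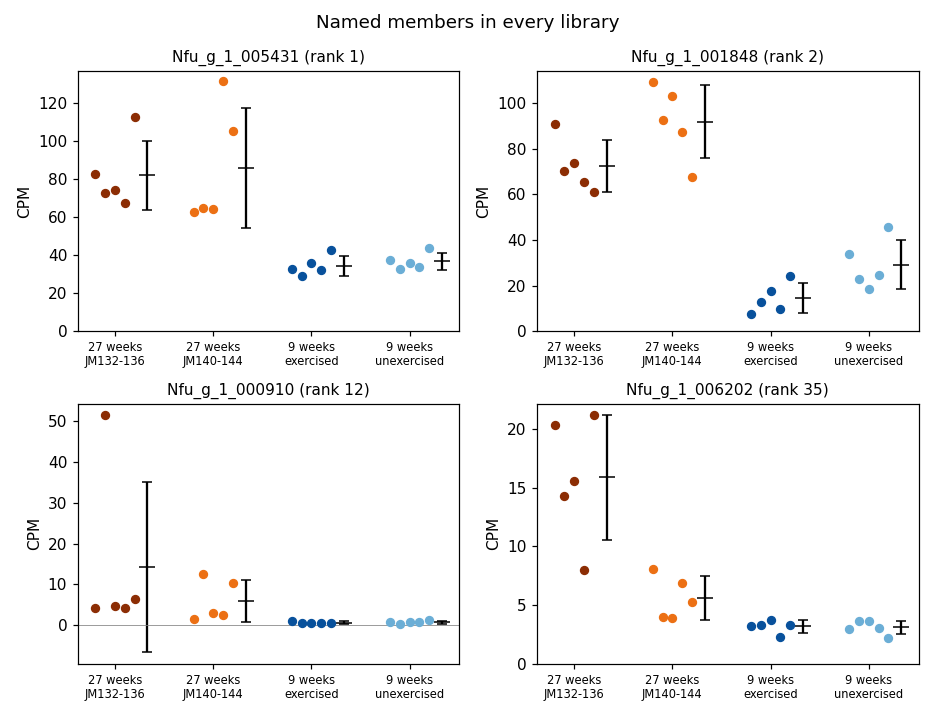
CPM of 4 members in every library. Each panel is 1 gene, each point 1 fish, and the black bar beside a set is its mean with SD (n = 5). In the first pair of genes every fish of 27 weeks lies clearly above those of 9 weeks. Nfu_g_1_000910 is high in single fish of 27 weeks, up to 51.4 CPM, and Nfu_g_1_006202 is highest in JM132 to JM136.

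The next members by gap differed in shape. The third was even at both ages, with 36.7 to 67.7 CPM at 27 weeks and 20.1 to 28.1 CPM at 9 weeks, a ratio of means of 2.02. The fourth was nearly silent in young skin, with 1.35 to 7.17 CPM at 27 weeks and 0.119 to 0.956 CPM at 9 weeks. At 9 weeks it rested on as few as 4 counts in a library. Its mean CPM was 10.9 times higher at 27 weeks. The sixth ranged from 42.6 to 120.8 CPM at 27 weeks and from 18.6 to 35.05 CPM at 9 weeks, so fish of 27 weeks differed from each other more (2.83-fold) than fish of 9 weeks did (1.89-fold).

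Ranks 12 and 13 were the members with the strongest single-fish values, and the same fish carried them. Nfu_g_1_000910, rank 12, had 4.18, 51.4, 4.80, 4.22 and 6.38 CPM in JM132 to JM136 and 1.52, 12.5, 3.01, 2.45 and 10.5 CPM in JM140 to JM144. It had 0.424 to 1.14 CPM in exercised and 0.304 to 1.25 CPM in unexercised fish of 9 weeks. The member of rank 13 had 22.9 CPM in JM133 and 11.4 CPM in JM141, 0.633 to 2.86 CPM in the other 8 fish of 27 weeks and 0.110 to 0.489 CPM at 9 weeks. For both genes JM133 was the highest and JM141 the second highest of the 27-week fish. The highest 27-week value was 11.4 times the median of the 10 fish for rank 12 and 8.99 times for rank 13, and no other member exceeded 3 times.

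Among the members, the ratio of means was larger at lower abundance. The rule bears on this, since a gene that varies more between libraries needs a larger difference to pass. Other genes of like abundance were not set beside the members, so this is a description only. The 21 members that averaged under 10 CPM had a median ratio of means, 27 over 9 weeks, of 2.75, and 10 of them were above 3. The 21 members at 10 to under 100 CPM had a median of 2.02, with 1 above 3. The 4 members at 100 CPM or more had ratios of 1.31 to 2.13. The most abundant, rank 37, had 273 to 609 CPM at 27 weeks and 158 to 265 CPM at 9 weeks. The smallest edgeR log2 fold change, 0.39 (SE 0.136), belonged to rank 39, with 201 to 297 CPM at 27 weeks and 154 to 196 CPM at 9 weeks. The median abundance of the members, 16.2 CPM, was close to the 13.0 CPM of all genes in the window. Per kb of gene length, the member of rank 33 had the highest level, 211 RPKM at 27 weeks and 142.3 RPKM at 9 weeks, with RPKM recomputed as CPM divided by length. The members' median level per length was 12.8 RPKM over all 20 libraries, against 5.12 RPKM for the window.

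With library totals, the fish of JM140 to JM144 usually set the lower edge among those of 27 weeks. The lowest 27-week fish was in JM140 to JM144 for 35 of 46 members (76.1%), and for 62.5% of all genes of the window. JM142 alone was lowest for 14 members and JM135 for 8, whereas over all 16648 genes of the window these fish were lowest at their age in 10.6% and 13.6%. Within its own run, JM135 was the lowest of 5 for 28 members and JM142 for 20. The share of window genes was not counted within runs, so nothing particular to the members is read from these. The highest 27-week value came most often from JM132 (16 members) and JM136 (15 members), which were highest at their age in 11.6% and 27.3% of window genes. These counts use library totals, and the TMM factor was 1.09 for JM132 and 1.23 for JM136, which lowers their TMM-scaled values. It was 1.03 for JM135 and 0.901 for JM142. Across JM140 to JM144 the factors were 0.841 to 0.942, which raises their TMM-scaled values. Across JM132 to JM136 they were 1.02 to 1.23. Which fish was lowest or highest was not counted under TMM. Among 9-week fish the upper edge was shared. The most frequent were JM121 and JM128 with 7 members each, which were highest at their age in 16.9% and 4.38% of window genes. JM126, highest in 27.7% of window genes, held 5 members. Exercised fish held 26 of the 46 highest values (56.5%, against 41.4% of window genes). The rule compared the highest 9-week value with the lowest 27-week value. Which fish held these values among the members was therefore shaped by the choice. The shares of members and of window genes are descriptions, and nothing particular to the members is read from them.

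The summed level of all members was lowest in JM142 and JM135 among the 27-week fish. JM132 to JM136 had 3044, 2509, 2521, 2176 and 2709 summed CPM and JM140 to JM144 had 2314, 2546, 1855, 2336 and 2215. Exercised 9-week fish had 1351, 1434, 1387, 1152 and 1288, and unexercised ones 1330, 1334, 1346, 1336 and 1254. The ages cannot overlap here, since each member was chosen not to. The 3 most abundant members held 41.3% of the sum.

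**Figure D3:**
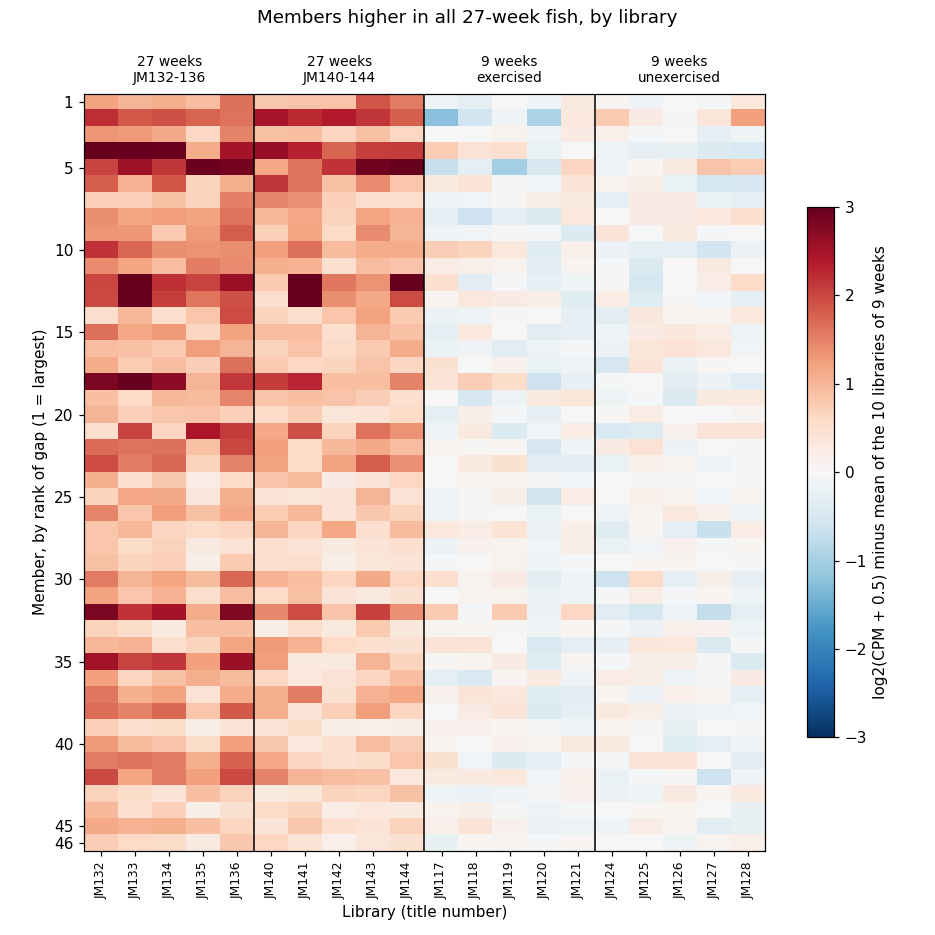
Each row is 1 of the 46 members, by rank of gap, and each column 1 library. Colour is log2(CPM + 0.5) minus the member's mean over the 10 libraries of 9 weeks, ending at 3 in either direction. JM135 and JM142 are paler than their neighbours in many rows. Rank 12 reaches the end of the colour scale in JM133, JM141 and JM144, and rank 13 in JM133 and JM141. Ranks 4 and 18 also reach it in JM133, and rank 5 in JM144.

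The rule asked for overlapping title runs, so the runs were set side by side to see what that left. With library totals, the mean log2(CPM + 0.5) was higher in JM132 to JM136 than in JM140 to JM144 for 41 of 46 members, by a median of 0.32. All genes of the window shared that lean, with a median of 0.23 and 65.3% higher in JM132 to JM136. TMM scaling took it away, with a median of 0.04 for the members and -0.03 for the window, and 27 of 46 members were then higher in JM132 to JM136. In edgeR's quasi-likelihood test between the runs, 3 of 46 members had an adjusted p under 0.05, 2 higher and 1 lower in JM132 to JM136, beside 41.6% of all 18306 genes tested (21.2% higher and 20.3% lower). The count was 6 without JM135, beside 3853 genes higher and 3642 lower of 18520. In a fit of all 20 libraries it was 1, beside 4336 genes higher and 3851 lower of 19140. The members' count cannot be read apart from the rule, which removed members whose runs were apart.

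The 3 members past the threshold were Nfu_g_1_006202 and rank 41, higher in JM132 to JM136, and Nfu_g_1_001848, lower there. Here and below, edgeR fold changes use TMM scaling and the CPM values of fish use library totals. Ratios of printed CPM can therefore differ from the fold changes. Rank 41, singled out after its values were seen, averaged 6.49 CPM in JM132 to JM136 and 3.59 CPM in JM140 to JM144, a log2 fold change of 0.55 (SE 0.192). Nfu_g_1_006202, rank 35, had the largest fold change toward JM132 to JM136. It had 20.3, 14.3, 15.5, 8.001 and 21.2 CPM in JM132 to JM136 and 8.10, 3.96, 3.92, 6.86 and 5.25 CPM in JM140 to JM144. The runs overlapped only because JM140, at 8.10 CPM, lay above JM135, at 8.001 CPM. Exercised and unexercised 9-week fish averaged 3.20 ± 0.539 and 3.11 ± 0.577 CPM (SD, n = 5 each), and their highest fish had 3.78 CPM, close to JM141 and JM142. The edgeR log2 fold change of JM132 to JM136 over JM140 to JM144 was 1.19 (SE 0.273).

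The second in size in that direction was Nfu_g_1_000910, with a log2 fold change of 1.003 (SE 0.896), not past the threshold. Without JM133 the value turned to -0.59, so 1 fish decided its direction. In the other direction Nfu_g_1_001848 had the largest fold change, -0.64 (SE 0.173). It averaged 72.3 ± 11.4 CPM in JM132 to JM136 and 91.8 ± 16.0 CPM in JM140 to JM144 (SD, n = 5 each). Nfu_g_1_018689, rank 27, followed with -0.43 (SE 0.185), also not past the threshold. It had 3.60 to 5.02 CPM in JM132 to JM136, 3.43 to 5.69 CPM in JM140 to JM144, 1.97 to 3.19 CPM in exercised and 1.25 to 2.74 CPM in unexercised 9-week fish. With library totals, the difference between runs in mean log2(CPM + 0.5) was -0.11 for this gene and -0.34 for Nfu_g_1_001848.

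Each run was also set against a different 9-week group, so that no young library served both. The labels tie neither run to a 9-week group. Every 27-week fish was exercised, so the comparison with unexercised 9-week fish differs in exercise as well as age. JM132 to JM136 over exercised 9-week fish gave the members edgeR log2 fold changes of 0.34 to 4.36, with a median of 1.13. JM140 to JM144 over unexercised 9-week fish gave 0.55 to 4.32, with a median of 1.09. Over all genes tested these medians were -0.01 and -0.03. The fold changes of a member in these comparisons differed by a median of 0.24 and by less than 0.5 for 34 of 46 members. They differed by over 1 for 3 members, those of ranks 4, 12 and 35. The rule asked for overlapping runs and overlapping 9-week groups, which itself holds these fold changes near each other. The share of all genes with fold changes this close was not counted, so their nearness supports nothing. Beside the share of all genes called higher, 45 of 46 members had an adjusted p under 0.05 in the first (25.9% of genes) and 46 of 46 in the second (7.22%). Against exercised 9-week fish, JM140 to JM144 had 45 of 46 (8.42%) and all 27-week fish together 46 of 46 (13.2%). The rule used all of these libraries, so the counts restate it. The member that missed in both comparisons of a single run with exercised fish was rank 39, with log2 fold changes of 0.34 (SE 0.136) in JM132 to JM136 and 0.44 (SE 0.150) in JM140 to JM144.

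**Figure D4:**
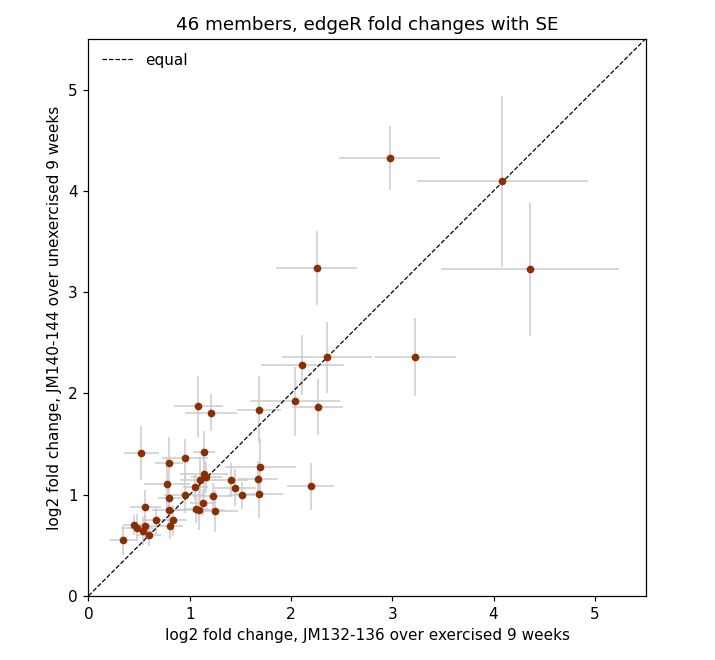
Log2 fold change of each member in JM132 to JM136 over exercised 9-week fish (horizontal) and in JM140 to JM144 over unexercised 9-week fish (vertical), with SE from edgeR and n = 5 fish per set. No library is shared between the axes, the dashed line marks equal values, and the points farthest from it are ranks 4, 12 and 35.

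Within the 9-week fish, the shares of members and of all genes past each threshold for exercise lay close together. In edgeR's test of exercised over unexercised fish, 45 members could be tested, 0 had an adjusted p under 0.05, beside 0.0108% of 18520 genes (0.0054% in each direction), and 6 (13.3%) had an unadjusted p under 0.05, beside 14.8% of all genes. DESeq2 called 1 of 46 members (2.17%), beside 2.32% of all genes. With limma-voom it was 0 members, beside 1 gene higher and 1 lower of 18520. The rule had already removed members whose young groups did not overlap. Log2 fold changes ran from -1.01 to 1.58 with a median of 0.06. Positive values were found for 28 of the 45 members, and the median of all genes was -0.01.

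Rank 4 did not pass edgeR's filter on low counts in this comparison. Its mean was 0.580 CPM with exercise and 0.197 CPM without, a larger ratio than that of the genes below. Among the 45 members tested, the largest fold changes in each direction were those of 4 genes. Nfu_g_1_009709, rank 32, had 1.42, 0.587, 1.42, 0.484 and 1.21 CPM in exercised fish and 0.388, 0.276, 0.501, 0.178 and 0.417 CPM in unexercised fish, a log2 fold change of 1.58 (SE 0.391). The groups overlapped through JM120 at 0.484 CPM and JM126 at 0.501 CPM. At 27 weeks it had 1.504 to 7.38 CPM. Nfu_g_1_021598, rank 10, had 18.4, 17.4, 13.5, 8.23 and 12.04 CPM with exercise and 9.56, 8.78, 8.83, 7.05 and 9.45 CPM without (log2 fold change 0.74, SE 0.238), and 21.5 to 50.6 CPM at 27 weeks. Exercised fish spread more widely than unexercised ones in this gene.

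Nfu_g_1_001848 lay lower with exercise, at 14.503 ± 6.68 CPM against 29.1 ± 10.7 CPM in unexercised fish (SD, n = 5 each). Its log2 fold change was -1.01 (SE 0.323). Nfu_g_1_004690, rank 5, had 0.678, 1.04, 0.436, 0.865 and 2.46 CPM in exercised fish and 1.26, 1.46, 1.77, 2.96 and 2.74 CPM in unexercised fish (log2 fold change -0.88, SE 0.420). At 27 weeks it had 7.28, 10.6, 7.92, 14.0 and 13.3 CPM in JM132 to JM136 and 3.73, 5.39, 8.07, 13.7 and 14.9 CPM in JM140 to JM144. Set against each young group in turn, with the same 27-week libraries in both comparisons, the edgeR log2 fold change of JM140 to JM144 was 2.88 (SE 0.268) over exercised and 1.86 (SE 0.276) over unexercised fish for Nfu_g_1_001848, and 3.24 (SE 0.473) and 2.36 (SE 0.386) for Nfu_g_1_004690.

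Gene length was not part of the rule. The members were short genes for this window, with a median of 1.71 kb against 2.82 kb over the 16648 genes. Of the window's genes, the 4162 shortest, up to 1.43 kb, held 19 members and the 4162 longest, from 4.84 kb, held 3. The other two sets of 4162 between these held 12 each. The shortest member, rank 36, has a length of 18 bases behind the deposited RPKM values, and 4 genes of the window were under 0.1 kb. No level per length is given for it. The 4162 longest genes had a median log2 difference, 27 minus 9 weeks, of -0.15, and the shortest of -0.01. The part of length in the members' difference was not tested beyond the removal of the trend below. For a length trend, each gene's mean log2 level over all libraries was first subtracted. The slope of the remainder on log2 length was -0.046 to -0.0094 in JM132 to JM136 and -0.027 to 0.013 in JM140 to JM144. It was -0.0026 to 0.034 in exercised and 0.0032 to 0.012 in unexercised 9-week fish. Such a slope sets a library against the average library and does not show how level depends on length. With this relative trend removed from each library, 37 of 46 members kept every 27-week library above every 9-week library. Of the 16648 genes of the window, 80 did.

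Whether a gene belonged to the set depended on how libraries were scaled. Under TMM scaling 37 of 46 members kept the separation of ages, where 311 of the 16648 window genes separated upward. With the size factors of DESeq2, 38 members kept it, where 318 window genes separated upward. The members were chosen for this separation, so these counts are descriptions. The 9 lost under TMM had gaps of at most 0.132 with library totals, and the first of them was rank 21. Each of the 12 widest members stayed separated under TMM, under size factors and with the length trend removed, and 32 of 46 members did so in all. The share of window genes that did so was not counted. Under TMM the widest gap was that of Nfu_g_1_004690, 0.53, whereas that of Nfu_g_1_001848 was 0.038. The whole rule with TMM-scaled values passed 109 genes, 36 of them members.

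**Figure D5:**
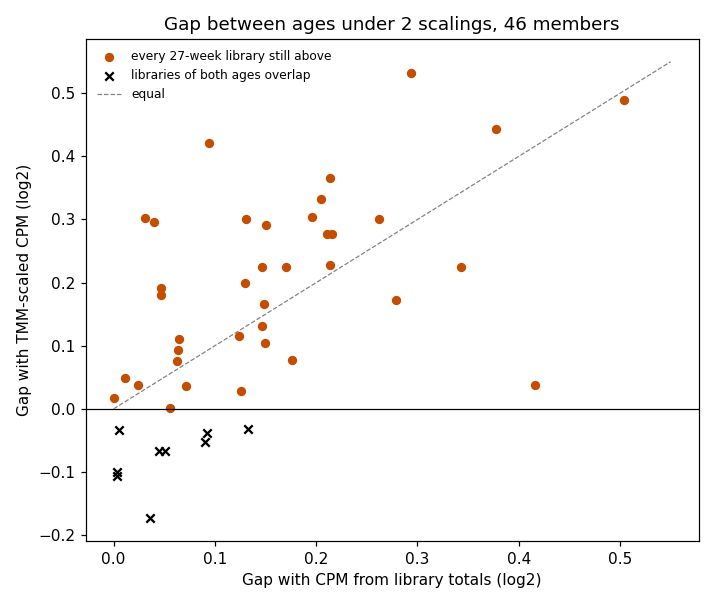
Gap between the ages for each of the 46 members, with CPM from library totals (horizontal) and TMM-scaled CPM (vertical), both on the log2 scale with 0.5 added. Crosses below 0 mark the 9 members whose ages overlap under TMM, all with gaps of at most 0.132 under library totals.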

How the data were processed

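Skin RNA of 20 killifish libraries was analysed. The submitters' processing notes name featureCounts 1.4.6-p4, STAR 2.4.1d and bcl2fastq 1.8.4. Build, annotation and strand setting: not given in the sources used here. Therefore overlapping genes, close copies and antisense partners may share reads. The deposited counts are whole reads per gene with no normalization. The deposited RPKM values were divided by library totals recycled down the rows (5.00% of values met their own total), so they served only for gene lengths and as an alternative.

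Members were chosen on log2(CPM + 0.5) by the rule given above, with CPM from column totals. The members, comparisons and named genes were chosen with earlier results of these data known. Identifiers printed are the 2 widest gaps and the 2 largest fold changes per direction between title runs and between 9-week groups. No library pair of a set agreed within sampling noise (lowest chi-square per degree of freedom 36.3 over 40 pairs).

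Fold changes are from edgeR 4.0.16 (R 4.3.3) on counts of the compared sets, with TMM, its expression filter and robust quasi-likelihood fits. P-values were adjusted by Benjamini-Hochberg over all genes tested. SE is the log2 fold change over the square root of F. The fits and the rule were run on simulated data with known changes, as a check of the code only. The simulated noise was simpler than that of these libraries, so nothing about the members follows from it. Since separate animals are not stated, a p-value reflects only how far these samples vary, which may be technical. Alternatives were DESeq2 1.42.0, limma-voom (limma 3.58.1), other scalings, pseudocounts and filters, 1 fit of all libraries, and leaving out each fish. Intervals over reads would cover counting error only, and none is given.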

Additional observations from a re-analysis of the deposited data

Results flagged for a closer look

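Named members and the summed level were checked in the labelled groups by Dixon's ratio. It is the distance of the lowest or highest fish to the next, over the range of the group. Of 27 checks, 2 passed its limit, where chance gives about 1.35. A high ratio can also arise because the other fish lie close together. Nfu_g_1_021598 was lowest in JM127 among unexercised 9-week fish, with a log2(CPM + 0.5) of 2.92, where the next fish had 3.21. The summed level of the 46 members was lowest in JM128 of the same group, at 1254 CPM against 1330 CPM for the next. Exercised 9-week fish ranged from 1152 to 1434 CPM, so JM128 lay within their range. Over all 46 members and 3 groups, 7 of 138 checks stood out in this way, where chance gives about 6.9.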

How the results depend on the processing

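The rule passed 0.276% of the genes in its abundance window, and 0.655% with TMM factors, 0.709% with DESeq2's size factors, 0.0541% with RPKM as deposited, 0.667% with exercised 9-week fish alone as the young set, and 0.258% to 0.438% without 1 fish. The highest was without JM135 (replicate 4 of 27 weeks), where 38 of 46 members still passed. Of the members, 7 kept the separation of ages with RPKM as deposited, which carries an added error between libraries. There, 16 of the 16648 window genes separated upward. Pseudocounts of 0.1 and 2 changed no member, but they could not have done so. A pseudocount keeps the order of the libraries. The rule's limit on the number of genes was not reached, so only that order and the mean CPM decided. Members called between the title runs numbered 3, beside 41.6% of all genes tested. In the fit of all 20 libraries the count was 1, beside 4336 genes higher and 3851 lower of 19140. It was 2 to 6 without 1 fish. Without JM132 it was 2, beside 3755 genes higher and 3095 lower of 18538. Without JM135 it was 6, beside 3853 genes higher and 3642 lower of 18520. Members called for exercise numbered 0, beside 0.0108% of all genes. DESeq2 called 1, beside 2.32% of all genes. Without 1 fish the count stayed 0, where at most 2 genes higher and 5 lower were called among all tested (without JM117, of 18619). In the comparisons with 9-week fish, 42 to 46 members were called under every alternative run. Over these runs the genes called higher among all tested changed widely. They were 764 of 18678 for JM140 to JM144 over unexercised fish without JM127. For JM132 to JM136 over exercised fish without JM117 they were 4938 of 18488. The rule used these libraries, so the members' counts restate it. Nfu_g_1_000910 between the runs turned to -0.59 without JM133, and reached 1.53 without JM141. The cause of these changes was not tested. Leaving out a fish also leaves fewer fish, and these cannot be told apart. The length trend, the exercised or the unexercised set alone, the rule under other scalings and no limits on mean CPM were added after the data were seen. No paired analysis was possible because the labels number no replicates, so no fish of one group is tied to a fish of another. At 1 CPM a library holds 20.6 to 38.6 counts, which limits the rarest members.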
